A study of Mus musculus with 12 samples.

Results

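The transcription factor p53, encoded by Trp53, and 9 of its established target genes were followed in 12 mouse rhabdomyosarcomas. The 10 genes were chosen by name, Trp53, Cdkn1a, Mdm2, Ccng1, Phlda3, Eda2r, Sesn1, Zmat3, Trp53inp1 and Aen, out of 38898 genes in the deposited tables, and all 10 were among the 17602 genes that passed the filter on low counts. Rd76-9 cells are an embryonal rhabdomyosarcoma line isolated from a methylcholanthrene-induced tumor of a female C57BL/6 mouse. They had been injected into the flank of wild-type C57Bl/6J mice that were 8 to 12 weeks old, so that every tumor derived from 1 line. Tumors were taken on day 16 and bulk RNA was sequenced from 3 tumors in each of 4 groups. The vehicle group had received saline and empty nanoparticles, as the study's methods describe. The treatment label of these 3 tumors names RCM1-NPFA beside the empty nanoparticle while their titles call them controls, so the group was taken from the titles, and every comparison with vehicle depends on it. The VCR group had received 0.25 mg/kg vincristine, a vinca alkaloid that blocks microtubule assembly, by intraperitoneal injection every 7 days. The RCM1-NPFA group had received 8 µg of RCM1, an inhibitor of the transcription factor FOXM1, packed in nanoparticles that carry folic acid and given intravenously every 48 hours. The VCR + RCM1-NPFA group had received both drugs at these doses. Tumors are numbered m1 to m3 (vehicle), m4 to m6 (VCR), m7 to m9 (RCM1-NPFA) and m10 to m12 (VCR + RCM1-NPFA).

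p53 is held at a low protein level by the ubiquitin ligase MDM2 and is stabilized when DNA damage, nucleolar stress or a prolonged mitosis interrupts that control. Stabilized p53 binds DNA as a tetramer and raises the transcription of genes that stop the cell cycle, repair DNA, restrain AKT and mTOR signaling, or lead to apoptosis. Because p53 is regulated mainly at the protein level, the RNA of its targets, rather than of Trp53 itself, is the usual transcript readout of its activity. Vincristine holds cells in mitosis, and FOXM1 drives the transcription of mitotic genes, so both drugs act on cell division.

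The promoters of the members are shown first, since the sequence that p53 reads joins these genes as a group. The p53 consensus is a pair of decamers that may be separated by a spacer of up to 13 bases. It was searched on both strands, which is 1 search because the decamer is its own reverse complement. RefSeq promoter windows of 300 bases in GRCm38.p6, from 250 bases before the annotated start, were at hand for 8 of the 10 members, in 11 windows. At least 1 decamer without mismatch lay in 7 of these 11 windows, for 6 genes, and in 8.36% of all 32851 windows. A pair of decamers with no mismatch lay in 0.0731% of all windows, one with at most 1 mismatch in 1.09% and one with at most 2 in 10.1%. The 250 bases before the start are given here for the 2 genes with the closest matches, with the decamers in capitals, and for Phlda3, the member that changed most after treatment, whose window held no decamer.
Cdkn1a (chr17:29090729-29090978, plus strand): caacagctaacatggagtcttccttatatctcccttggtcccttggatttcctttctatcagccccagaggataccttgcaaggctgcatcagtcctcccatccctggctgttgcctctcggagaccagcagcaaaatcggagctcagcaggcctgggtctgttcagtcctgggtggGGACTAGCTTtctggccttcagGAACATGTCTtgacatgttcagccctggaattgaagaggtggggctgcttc
Ccng1 (chr11:40755287-40755536, minus strand): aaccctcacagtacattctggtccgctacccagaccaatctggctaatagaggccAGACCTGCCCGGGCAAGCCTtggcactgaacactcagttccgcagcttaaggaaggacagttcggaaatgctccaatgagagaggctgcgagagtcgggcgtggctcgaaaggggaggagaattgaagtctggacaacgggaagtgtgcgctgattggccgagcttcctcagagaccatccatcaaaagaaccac
Phlda3 (chr1:135765835-135766084, plus strand): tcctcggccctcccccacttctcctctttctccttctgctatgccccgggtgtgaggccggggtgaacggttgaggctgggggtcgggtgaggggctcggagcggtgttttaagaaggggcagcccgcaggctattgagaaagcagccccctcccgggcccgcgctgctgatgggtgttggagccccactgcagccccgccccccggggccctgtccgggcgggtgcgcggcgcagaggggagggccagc
The Cdkn1a match had no mismatch and a spacer of 12 bases, and it began 73 bases before the upstream start of the gene, the start annotated for NM_001111099.2. The search kept only the pair with the fewest mismatches. The second decamer, GAACATGTCT, is also followed without a spacer by tgacatgttc, which has 1 mismatch, so the sequence holds another pair. Which pair p53 binds was not tested. The window at the downstream start held no decamer. The Ccng1 match had 1 mismatch and no spacer and began 195 bases before the start.

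Weaker matches stood in 4 other members and are given as the matched bases only, with spacers in lower case. Trp53 and Mdm2 each held a lone decamer, and the pairs in Sesn1 and Aen had 2 mismatches each.
Trp53 (chr11:69580284-69580293, plus strand): GGACTTGCCC
Mdm2 (chr10:117710935-117710944, minus strand): GAACTTGCCT
Sesn1 (chr10:41887253-41887275, plus strand): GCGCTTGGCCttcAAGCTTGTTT
Aen (chr7:78895937-78895963, plus strand): GGGCTTGTCCgggcaagGAGCTTCCGC
The Trp53 match began 75 bases and the Mdm2 match 186 bases before its start, while the Sesn1 match lay 186 bases before the second of its 2 starts and the Aen match 121 bases before the downstream start. No decamer was found in the window of Eda2r. A match of letters is not evidence of binding, and sites of p53 in introns or farther upstream lie outside these windows.

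The RNA level of the p53 gene was high and nearly even among tumors. Levels are first compared between genes as TPM, the length-scaled abundance per 1000000 transcripts. Trp53 (chr11:69580348-69591873) was by far the most abundant member, at 261 ± 11.6 TPM (SD, n = 12), and its median stood at percentile 97.2 of all tested genes. Trp53 read 246, 264 and 267 TPM in vehicle tumors, 275, 260 and 263 TPM in VCR tumors, 251, 284 and 243 TPM in RCM1-NPFA tumors and 264, 255 and 255 TPM in VCR + RCM1-NPFA tumors. The 4 groups overlapped throughout, and Trp53 alone took 48.5% to 59.3% of the summed TPM of the 10 genes.

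Below Trp53 the targets fell into a broad middle group and a low tail. The medians over 12 tumors were 44.0 TPM for Phlda3, 40.4 TPM for Ccng1, 40.4 TPM for Cdkn1a, 30.1 TPM for Mdm2 and 28.1 TPM for Sesn1. The order within this group was not firm, because the ranges of neighbours overlapped and the gene with the higher median was the higher one in 8 to 10 of 12 tumors. Aen followed at 15.1 TPM, Zmat3 at 6.71 TPM, Eda2r at 5.48 TPM and Trp53inp1 at 1.08 TPM. The steps from Trp53 to Phlda3, from Sesn1 to Aen, from Aen to Zmat3 and from Eda2r to Trp53inp1 were without overlap in these 12 tumors, and Zmat3 and Eda2r overlapped.

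**Figure D1:**
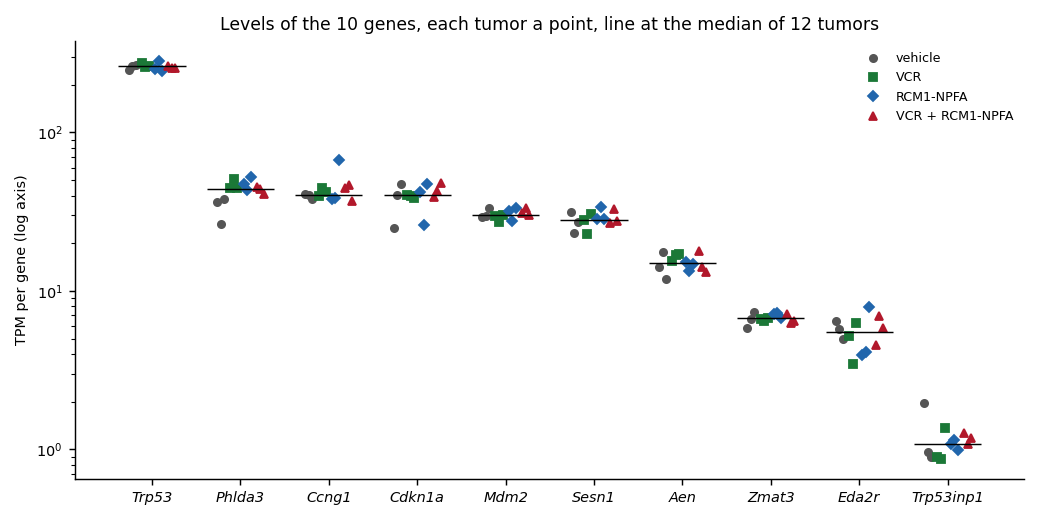
TPM per gene on a log axis for the 10 genes in each of 12 tumors, with symbols by group and a line at the median. Trp53 stood between 243 and 284 TPM in every tumor, and the targets ranged down to Trp53inp1 at 0.871 to 1.97 TPM.

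Between tumors, counts per 1000000 (CPM) after TMM scaling were compared with edgeR in 1 fit over all 12 tumors, and a gene was called changed at a Benjamini-Hochberg adjusted p under 0.1 over all tested genes. After VCR alone, 1 of the 10 members was called, Phlda3, which rose. In this comparison 5.55% of all tested genes were called. None of the 10 members was called after RCM1-NPFA, after the combination, in the combination against either single drug or in the interaction of the drugs, and in each of these 5 comparisons the share of all tested genes called was also 0 (0%). At an unadjusted p under 0.05 by edgeR, 2 members passed after VCR (Phlda3 and Aen), against 3892 of all 17602 tested genes. The members passing numbered 1 after RCM1-NPFA (Phlda3), 1 after the combination (Phlda3), 0 in each comparison of the combination with a single drug and 1 in the interaction (Phlda3). In the same order, 1722, 1286, 926, 364 and 2437 genes passed in all. The median log2 fold change of the members was 0.08 after VCR, 0.04 after RCM1-NPFA and 0.03 after the combination, beside 0.00 over all tested genes in each. The 3 comparisons with vehicle share the same control tumors.

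**Figure D2:**
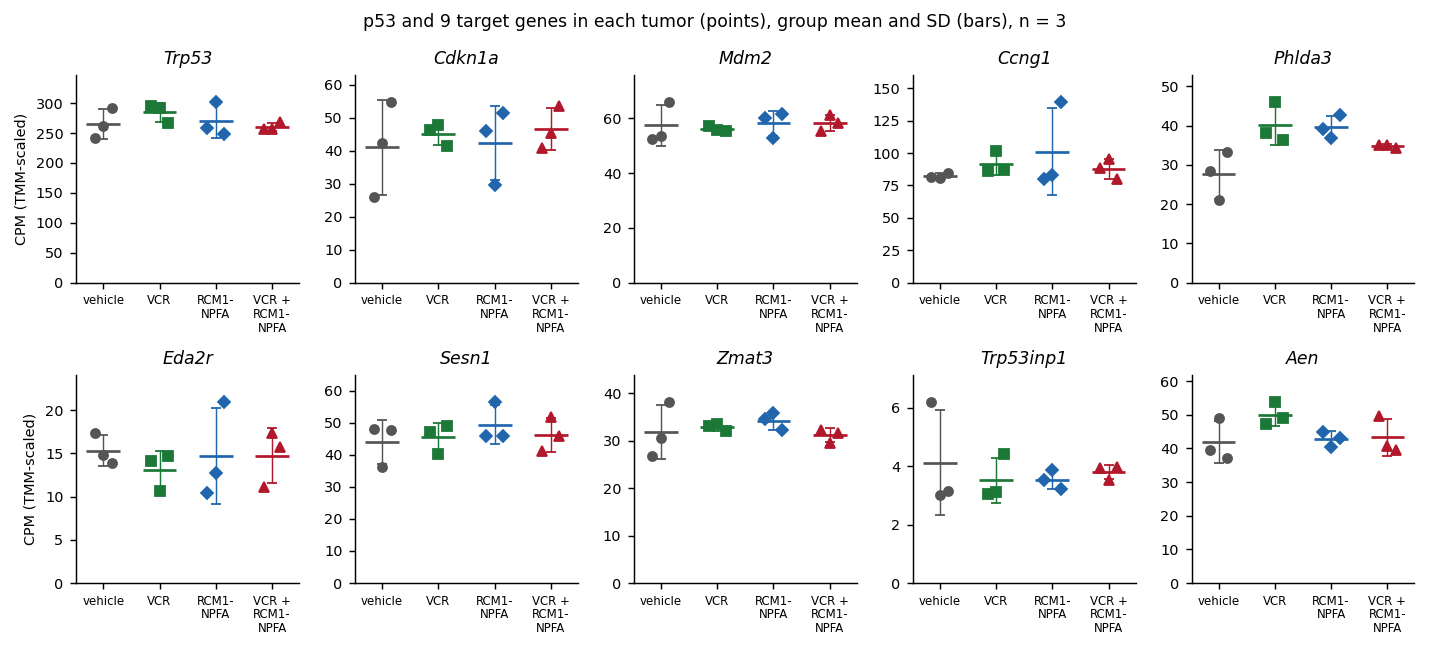
TMM-scaled CPM of each of the 10 genes in each tumor (points), by group, with the group mean and SD as bars (n = 3) and axes from 0. In Phlda3 all 9 treated tumors stood above the 3 vehicle tumors, while the groups of the other 9 genes overlapped in at least 2 of the 3 comparisons with vehicle.

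Phlda3 (chr1:135766085-135769134) encodes a pleckstrin-homology domain protein that competes with AKT for membrane lipids and so restrains AKT signaling. Its level was 28.6, 21.0 and 33.2 CPM in vehicle tumors, 38.2, 46.1 and 36.4 CPM in VCR tumors, 39.3, 36.9 and 42.7 CPM in RCM1-NPFA tumors and 35.2, 35.2 and 34.3 CPM in VCR + RCM1-NPFA tumors. Every treated tumor stood above every vehicle tumor, though the margin was narrow, from 33.2 CPM in the highest vehicle tumor to 34.3 CPM in the lowest treated one. Such a gap between all 9 treated tumors and vehicle was seen in 4.29% of all tested genes and in 1 of the 10 members.

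The rise of Phlda3 after VCR was 0.54 on the log2 scale (SE 0.146, 95% interval 0.22 to 0.86, adjusted p = 0.0873 by edgeR), or 1.46-fold. After RCM1-NPFA the difference was 0.52 (SE 0.146, adjusted p = 0.419 by edgeR), and after the combination it was 0.34 (SE 0.146, interval 0.02 to 0.66, adjusted p = 0.682 by edgeR). The interaction term, which asks whether the combination departs from the sum of the single-drug differences, was -0.73 (SE 0.206, interval -1.18 to -0.28, adjusted p = 0.293 by edgeR). DESeq2 on the same 12 tumors called Phlda3 after VCR (adjusted p = 0.0119), after RCM1-NPFA and in the interaction, where it called 7.37%, 0.928% and 1.56% of the genes it tested. DESeq2 called no member in the other 3 comparisons, and limma-voom called Phlda3 after VCR and no member elsewhere. The share of all genes called was not set beside these counts. The study's own DESeq2 analysis reported differentially expressed genes for the combination against vehicle, where edgeR called none here.

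The call did not hold in every set of tumors or with offsets for GC content and length. Without m2, the vehicle tumor with the lowest level, the difference after VCR was 0.37 (adjusted p = 0.183 by edgeR), and without m5, the VCR tumor with the highest, it was 0.44 (adjusted p = 0.332 by edgeR). The call was also lost without m1, m4, m10, m11 or m12, each left out alone (adjusted p from 0.111 to 0.224 by edgeR), while the difference itself stayed between 0.52 and 0.58. Without m2 the difference after the combination was 0.17. With offsets from splines of GC content and length fitted in each tumor, the difference after VCR was 0.24 (adjusted p = 0.241 by edgeR). The GC content of Phlda3, 62.6%, stood at percentile 98.7 of the tested genes.

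Marker RNA of muscle fibres and of endothelium is set beside Phlda3 here. The summed level of 22 mature muscle fibre markers was 314 to 458 CPM in vehicle tumors and 2313 to 14901 CPM in VCR tumors. It was 422 to 22505 CPM in RCM1-NPFA tumors and 855 to 5836 CPM in VCR + RCM1-NPFA tumors. The 2 tumors with the most muscle RNA, m5 and m9, also had the 2 highest Phlda3 levels. Other tumors did not follow that order. In m7 muscle RNA was 422 CPM, inside the vehicle range, and Phlda3 was 39.3 CPM. In m11 muscle RNA was 5836 CPM and Phlda3 was 35.2 CPM. The summed level of 7 endothelial markers was 131 to 180 CPM in vehicle tumors, 188 to 254 CPM after VCR, 187 to 223 CPM after RCM1-NPFA and 188 to 200 CPM after the combination, so it too was higher in every treated tumor. Without m5 and m9 the difference of Phlda3 after VCR was 0.43 (adjusted p = 0.294 by edgeR). The part of these cells in the Phlda3 result was not tested, and in bulk tumors a change in the number of cells of a type and a change in RNA per cell cannot be told apart.

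**Figure D3:**
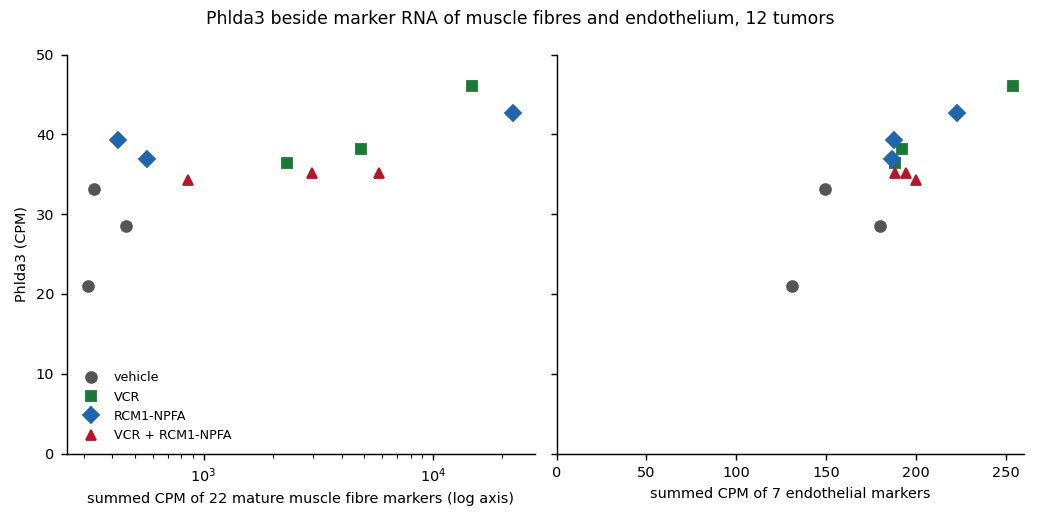
Phlda3 CPM (vertical) against the summed CPM of 22 mature muscle fibre markers (left, log axis) and of 7 endothelial markers (right) in each of 12 tumors. The vehicle tumors sit lowest in Phlda3 and on the endothelial axis, at 131 to 180 CPM, and tumors m5 and m9 sit highest in Phlda3.

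Cdkn1a (chr17:29090979-29100722) encodes p21, the inhibitor of cyclin-dependent kinases through which p53 halts the cell cycle, and it is the most used readout of p53 activity. It read 26.0, 42.3 and 54.9 CPM in vehicle tumors, 46.2, 47.7 and 41.4 CPM in VCR tumors, 46.0, 29.7 and 51.5 CPM in RCM1-NPFA tumors and 40.8, 45.5 and 53.6 CPM in VCR + RCM1-NPFA tumors. The vehicle group held both the lowest and the highest tumor of all, so no treated tumor lay outside its range. The log2 difference from vehicle was 0.14 after VCR (SE 0.247, interval -0.40 to 0.68, adjusted p = 0.786 by edgeR), 0.05 after RCM1-NPFA (interval -0.49 to 0.59) and 0.19 after the combination (interval -0.35 to 0.73). The intervals reach up to a rise of 1.60-fold after VCR and 1.65-fold after the combination. Cdkn1a had the widest spread of the members within groups, an SD of 0.36 on the log2 scale, against a median of 0.19 over all tested genes.

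Ccng1 (chr11:40748552-40755309) encodes cyclin G1, which takes part in the feedback from p53 to MDM2. It read 81.2, 80.7 and 84.7 CPM in vehicle tumors, 85.8, 102 and 87.2 CPM in VCR tumors, 80.2, 83.0 and 140 CPM in RCM1-NPFA tumors and 88.8, 95.1 and 79.7 CPM in VCR + RCM1-NPFA tumors. The 3 VCR tumors lay just above the vehicle tumors, and m9 alone stood far above the rest. Ccng1 and Phlda3 were the 2 members whose VCR and vehicle tumors did not overlap, where 24.4% of all tested genes were without overlap. Phlda3 was the 1 such member after RCM1-NPFA, where 11.4% of genes were without overlap, and the 1 such member after the combination, where 12.6% were. The log2 difference of Ccng1 was 0.16 after VCR (SE 0.176, adjusted p = 0.642 by edgeR) and 0.30 after RCM1-NPFA (SE 0.176, adjusted p = 0.626 by edgeR), and without m5 and m9 the latter was -0.01. Both tumors were the ones richest in muscle fibre RNA, whose part in the level of Ccng1 was not tested.

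Mdm2 (chr10:117688875-117710758), the ubiquitin ligase that is both target and inhibitor of p53, was among the steadiest members. It ranged from 52.6 to 66.1 CPM in vehicle tumors and from 52.8 to 61.6 CPM over the 9 treated tumors. The log2 difference was -0.03 after VCR (interval -0.23 to 0.17), 0.02 after RCM1-NPFA (interval -0.18 to 0.22) and 0.02 after the combination (interval -0.18 to 0.22). These intervals place any rise of Mdm2 below 1.17-fold in each of the 3 comparisons. For Trp53 the differences were 0.10 after VCR (interval -0.10 to 0.30), 0.03 after RCM1-NPFA (interval -0.17 to 0.23) and -0.02 after the combination (interval -0.23 to 0.18), which places any rise below 1.24-fold after VCR.

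The targets that act on repair, stress and growth signaling did not pass the test either. Sesn1 (chr10:41810574-41908436), a sestrin that restrains mTOR signaling, read 48.1, 36.1 and 47.6 CPM in vehicle tumors and 40.2 to 56.4 CPM over treated tumors, with log2 differences of 0.05 after VCR, 0.17 after RCM1-NPFA and 0.07 after the combination. Zmat3 (chr3:32334792-32365665), an RNA-binding zinc finger protein that takes part in tumor suppression by p53, read 26.8, 30.6 and 38.2 CPM in vehicle tumors and 29.6 to 35.9 CPM over treated tumors, so the vehicle group spanned all others. Its differences were 0.05, 0.10 and -0.03 in the same order.

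The targets tied to cell death gave 1 value near the unadjusted threshold. Aen (chr7:78895927-78911209), a nuclease that takes part in apoptosis, read 39.7, 48.9 and 37.2 CPM in vehicle tumors and 47.2, 53.8 and 49.1 CPM in VCR tumors, which overlapped. Its log2 difference after VCR was 0.25 (SE 0.116, unadjusted p = 0.050, adjusted p = 0.226 by edgeR), and it was 0.03 after RCM1-NPFA and 0.04 after the combination. Eda2r (chrX:97333837-97377234), a receptor of the tumor necrosis factor receptor family, read 17.3, 14.8 and 13.9 CPM in vehicle tumors, 14.1, 10.6 and 14.7 CPM after VCR, 10.4, 12.7 and 21.0 CPM after RCM1-NPFA and 11.1, 17.3 and 15.8 CPM after the combination, and its differences were -0.22, -0.06 and -0.06. Trp53inp1 (chr4:11156441-11174379), a stress protein that promotes apoptosis and autophagy, rested on 90 to 201 estimated counts a tumor, the fewest of the members. Its level was 6.20 CPM in m1 and 3.02 to 4.42 CPM in the other 11 tumors, so that its differences of -0.23 after VCR, -0.22 after RCM1-NPFA and -0.12 after the combination rested on that vehicle tumor, and without m1 they were 0.19, 0.19 and 0.30.

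Adding one drug to the other gave no called member, and the intervals were wide. The combination against VCR ranged from -0.21 on the log2 scale for Aen to 0.17 for Eda2r, and the combination against RCM1-NPFA ranged from -0.20 for Ccng1 to 0.14 for Cdkn1a. The 95% intervals of single members reached from 0.70-fold (Phlda3) to 1.64-fold (Eda2r) against VCR. Against RCM1-NPFA they reached from 0.67-fold (Ccng1) to 1.61-fold (Trp53inp1). Adjusted p-values by edgeR were at least 0.855 in both comparisons.

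**Figure D4:**
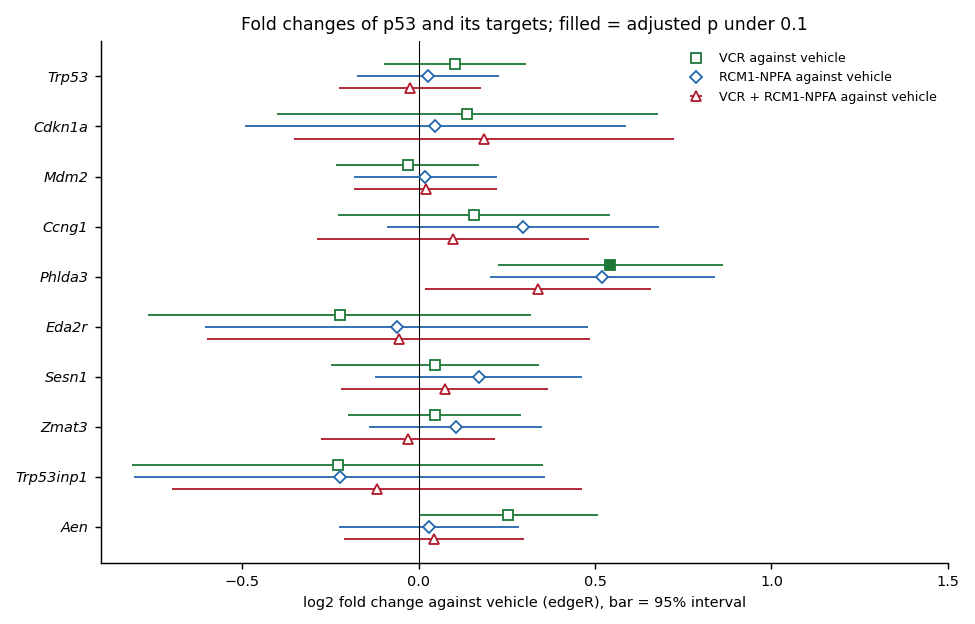
Log2 fold change against vehicle (edgeR) with its 95% interval for each of the 10 genes after VCR, RCM1-NPFA and both, a filled symbol marking an adjusted p under 0.1. Phlda3 after VCR is the filled symbol at 0.54. The intervals of the other 9 genes lie across 0 in all 3 comparisons, except that of Aen after VCR, whose lower end is at 0.00.

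Apart from Zmat3, no target was related to Trp53 in RNA at an adjusted p under 0.05, and Zmat3 was so by Pearson's r alone. Over 12 tumors, the relation of log2 CPM to Trp53 was computed for each of the 9 targets with 100000 permutations. Zmat3 had the highest correlation, a Pearson's r of 0.74 with p = 0.00481 by permutation and 0.0433 after adjustment for 9 relations, and a Spearman's rho of 0.65 with p = 0.0263 by permutation and 0.237 after adjustment. Without m8 and m4, the 2 tumors farthest from the median of Trp53, r was 0.74, and the correlation of deviations from group means was 0.79. On the TPM scale r fell to 0.47 (permutation, adjusted p = 0.284). The other 8 targets ranged from -0.48 for Trp53inp1 to 0.30 for Phlda3, with permutation p-values adjusted to 0.394 or above. Without m8 and m4 the r of Cdkn1a was 0.60, against 0.16 over all 12 tumors.

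Nor did the targets move as 1 group among the tumors. Of the 36 pairs of targets, 20 had an r above 0, with a median of 0.15. The highest was 0.77 between Cdkn1a and Mdm2 and the lowest -0.72 between Cdkn1a and Trp53inp1, and these are descriptions over 12 tumors that share a library type and a line. The 5 tested genes whose log2 CPM most resembled that of Cdkn1a were Tjap1 (r = 0.95), Hmox1 (r = 0.90), Spata5l1 (r = 0.90), Rnf128 (r = 0.90) and Ier3 (r = 0.88). The 5 that most resembled the mean of the 9 scaled targets were Rilpl1 (r = 0.93), Nrarp (r = 0.91), Cpe (r = 0.90), Irf2bpl (r = 0.89) and Nr1d1 (r = 0.87). These genes were the highest of 17602 over 12 tumors, and no function is read from the likeness.

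The leading transcript of a member took from 53.4% of its TPM (Eda2r) to 100% (Phlda3), and several members were split. The authors' quantification assigned 76.4% of Trp53 TPM to NM_011640.3 (72.2% to 79.5% over tumors) and 20.1% to NM_001127233.1 (16.9% to 23.7%). Cdkn1a was given almost wholly, at 96.5%, to NM_007669.5, and 3.47% to NM_001111099.2, the transcript of the upstream start beside the decamer pair shown above. Mdm2 was split into 72.4% for NM_010786.4 and 23.2% for NM_001288586.2, Sesn1 into 76.2% for NM_001013370.2 and 23.8% for NM_001162908.1, and Aen into 56.4% for NM_026531.5, 21.6% for NM_001162939.2 and 17.7% for NR_153795.1. Phlda3 had a single RefSeq transcript.

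The share of the leading transcript was compared with vehicle in 7 members with at least 2 transcripts above 5%, in 21 exact permutation tests. With 3 tumors against 3 the smallest two-sided p is 0.1, so that none could pass 0.05. That p was reached in 2 tests. The share of NM_010786.4 in Mdm2 was 77.5% ± 0.648 (SD, n = 3) after RCM1-NPFA and 69.7% ± 6.20 (SD, n = 3) in vehicle tumors (exact p = 0.10). The share of NM_026531.5 in Aen was 64.3% ± 3.60 (SD, n = 3) after the combination and 54.0% ± 7.49 (SD, n = 3) in vehicle tumors (exact p = 0.10). The leading share of Trp53 was 75.6% ± 3.13 in vehicle tumors and 77.1% ± 0.675 after VCR (SD, n = 3 each, exact p = 0.600). In Trp53inp1 the share of NM_021897.4 was 38.7% ± 33.6 after the combination and 84.3% ± 27.1 in vehicle tumors (SD, n = 3 each, exact p = 0.300). Trp53inp1 rested on 90 to 201 estimated counts a tumor.

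Beyond the 10 members, 33 further p53 targets were listed by role, of which 32 were tested and 3 were called after VCR, or 9.38%, all higher, beside 5.55% of all tested genes. None was called after RCM1-NPFA or the combination by edgeR, where edgeR called 0 of all tested genes too. DESeq2 and limma-voom called 0 of these targets in both. After RCM1-NPFA, DESeq2 called 0.928% of the genes it tested. Its share for the combination, and the shares of limma-voom, were not set beside these counts. By edgeR 4 and 4 of the targets had an unadjusted p under 0.05 after RCM1-NPFA and the combination, beside 1722 and 1286 of all 17602 tested genes. The medians of the 32 log2 fold changes were 0.11 after VCR, -0.01 after RCM1-NPFA and 0.04 after the combination. The 3 called genes came 1 from each of the lists on arrest and repair (1 of 14), death (1 of 9) and metabolism and other roles (1 of 9).

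Bax, the pore-forming protein of the mitochondrial death pathway, rose by 0.28 on the log2 scale after VCR (SE 0.0742, adjusted p = 0.0861 by edgeR), from 69.9, 69.0 and 68.3 CPM in vehicle tumors to 80.7, 94.1 and 77.4 CPM. Its GC content was 63.5%, at percentile 99.2, and with the GC and length splines the difference turned to -0.07. Rps27l, a ribosomal protein paralog induced by p53, rose by 0.35 (SE 0.0906, adjusted p = 0.0868 by edgeR), from 76.1, 81.4 and 74.9 CPM to 96.2, 110 and 89.2 CPM. Gtse1, a microtubule-associated protein that is itself a negative regulator of p53 in G2, rose by 0.33 (SE 0.0842, adjusted p = 0.0851 by edgeR), from 49.1, 50.1 and 46.0 CPM to 56.4, 67.2 and 58.2 CPM. In all 3 genes, which were chosen by their call, the VCR tumors stood wholly above the vehicle tumors, where 24.4% of all tested genes were without overlap. The VCR tumor richest in muscle RNA, m5, was the highest. In m9, an RCM1-NPFA tumor with still more muscle RNA, Bax was 70.3 CPM, Rps27l 89.6 CPM and Gtse1 52.5 CPM. The part of muscle RNA in these 3 genes was not tested. Without m5 and m9, 0 of the 32 targets were called after VCR, and 0 to 6 were called when single tumors were left out. The share of all tested genes called in those fits was not set beside these counts, so they are not read as particular to p53 targets.

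Other targets named for the lowest p-values of their list did not pass by edgeR. Plk3, a stress kinase, differed by 0.32 after VCR (adjusted p = 0.195 by edgeR). Ei24, a protein of the endoplasmic reticulum, differed by 0.16 after VCR and 0.17 after RCM1-NPFA. Apaf1, the scaffold of the apoptosome, stood at -0.25 after RCM1-NPFA, or -0.09 without m1, and Plk2, a relative of Plk3, at -0.32. Zfp365 stood at 0.51 after RCM1-NPFA on about 1 CPM a tumor. Sesn2, a sestrin that responds to several stresses, was at -0.76 after the combination, and Ddit4, an mTOR inhibitor induced by hypoxia as well as by p53, was at -0.73 after VCR, -0.48 after RCM1-NPFA and -0.73 after the combination. By edgeR neither had an adjusted p below 0.154 in any of the 3 comparisons, whereas DESeq2 called Ddit4 lower after VCR (-0.74, adjusted p = 0.0428). Vehicle tumors differed widely in both genes. Without m1, Ddit4 after VCR stood at -1.05 (adjusted p = 0.0571 by edgeR), and without m3 it stood at -0.53 and Sesn2 after the combination at -0.44. Ak1, an adenylate kinase abundant in muscle, was at 1.55 after VCR and 1.89 after RCM1-NPFA (adjusted p = 0.217 and 0.437 by edgeR), and its highest tumors were m9 at 162 CPM and m5 at 91.8 CPM, again those with the most muscle RNA, against 15.2 to 20.6 CPM in vehicle tumors. Without m9 its difference after RCM1-NPFA was 0.31.

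Among 19 regulators and relatives of p53, 17 were tested and 1 was called after VCR, a share near the 5.55% of all tested genes. Ep300, the acetyltransferase p300 and a coactivator of p53, fell by 0.42 on the log2 scale (SE 0.115, adjusted p = 0.0908 by edgeR), from 143, 102 and 99.4 CPM in vehicle tumors to 83.7, 84.8 and 89.1 CPM, with m1 well above the other vehicle tumors. Without m1 the difference was -0.23 (adjusted p = 0.113 by edgeR). Rchy1, a ubiquitin ligase that acts on p53, differed by 0.25 and lay at the threshold (adjusted p = 0.10 by edgeR). By edgeR, DESeq2 or limma-voom 0 regulators were called after RCM1-NPFA or the combination. Of all tested genes edgeR called 0 in both, and DESeq2 called 0.928% after RCM1-NPFA. The share by DESeq2 for the combination, and those by limma-voom, were not set beside this. At an unadjusted p under 0.05 by edgeR there were 2 and 2 regulators, beside 1722 and 1286 of all 17602 tested genes. In these 2 comparisons Rchy1 stood at 0.20 and 0.22 and Ep300 at -0.30 and -0.32, or -0.11 and -0.13 without m1. Cdkn2a was abundant, at 144 ± 13.1 TPM (SD, n = 12), and 99.0% to 99.8% of it was assigned to NM_009877.2, the transcript that encodes ARF, an inhibitor of MDM2, a gene examined after its level was seen. Trp63 and Trp73, the relatives of p53, did not pass the filter and reached at most 0.511 and 0.0519 TPM.

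The cell cycle genes that p53 lowers through p21 and the DREAM repressor complex were not lower after treatment in any called gene. Of 15, 2 were called after VCR, both higher, where 5.55% of all tested genes were called, and 12 of 15 lay above 0, with a median log2 fold change of 0.17. Over all tested genes 8847 of 17602 lay above 0, with a median of 0.00. Plk1, a kinase of mitotic entry, rose by 0.36 (SE 0.0793, adjusted p = 0.0712 by edgeR), from 103, 112 and 103 CPM in vehicle tumors to 125, 151 and 135 CPM. Cdc20, the activator of the anaphase-promoting complex, rose by 0.29 (SE 0.0769, adjusted p = 0.0871 by edgeR), from 160, 163 and 159 CPM to 188, 217 and 183 CPM. Birc5, which encodes survivin, differed by 0.34 (adjusted p = 0.114 by edgeR). By the same 3 tools 0 were called after RCM1-NPFA or the combination, where Plk1 stood at 0.24 and 0.26. Of all tested genes edgeR called 0 in both, and DESeq2 called 0.928% after RCM1-NPFA. The share by DESeq2 for the combination, and those by limma-voom, were not set beside this. At an unadjusted p under 0.05 by edgeR there were 2 and 1 cell cycle genes, beside 1722 and 1286 of all 17602 tested genes. With the GC and length splines Plk1 was at 0.13 and Cdc20 at 0.03. Without m5 and m9 neither list of this paragraph nor the one before it held a call. The share of all tested genes called in that fit was not set beside this.

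**Figure D5:**
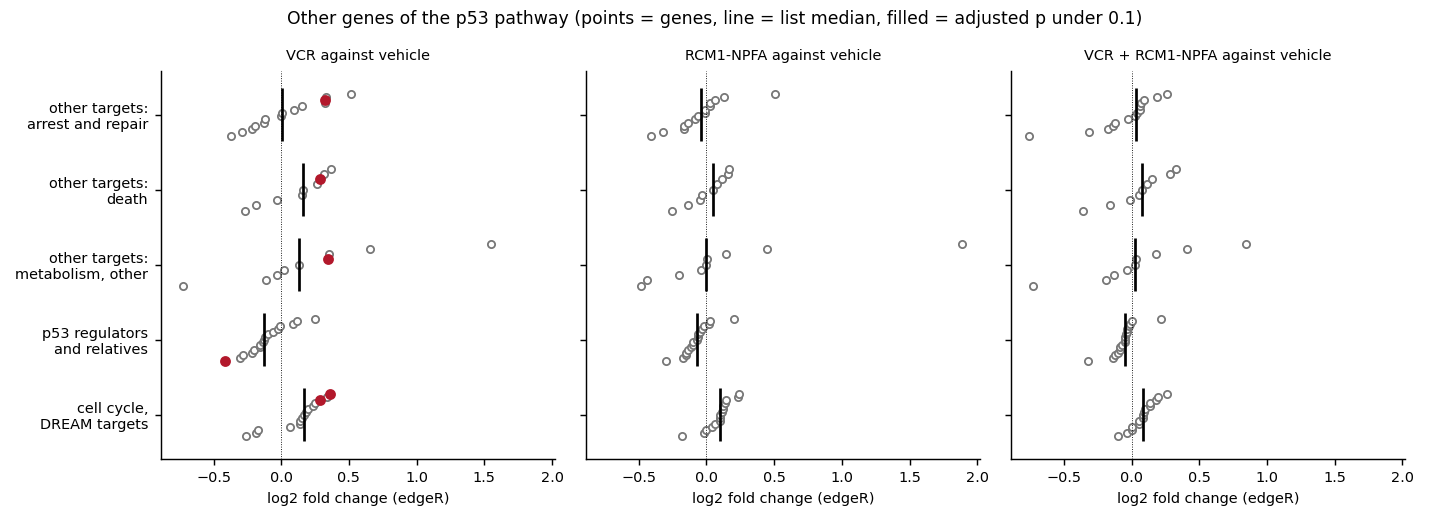
Log2 fold change against vehicle (edgeR) of the tested genes in 5 lists of the p53 pathway (rows), 1 point a gene, in 3 comparisons (panels), with a line at the list median and filled points for adjusted p under 0.1. The 6 filled points are all in the VCR panel, 5 above 0 and Ep300 below, and the point at 1.55 there is Ak1.

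The libraries held 29342195 to 32108055 estimated counts each, so that depth was even. The levels of 10 myogenic regulators and muscle genes are set beside the labelled tumor type. Myf5 was at 38.8 to 59.9 TPM in every tumor, whereas Myod1 and Myog stayed at or below 2.19 and 2.44 TPM and Pax7 at or below 0.0554 TPM. Des ranged from 4.45 to 317 TPM and Myf6 from 0.243 to 20.3 TPM. Pax3, Chrna1, Mymk and Myh3 reached at most 1.69, 3.49, 0.707 and 0.665 TPM. Of the 8 tested genes of this list, 3 were called higher after VCR by edgeR, beside 5.55% of all tested genes. No verdict on the tumor type is drawn from these levels. Summed keratinocyte markers were at 5.20 to 6.73 CPM and leukocyte markers at 1550 to 2394 CPM, with every treated group overlapping vehicle in both. Adipocyte markers ranged from 24.7 to 156 CPM in vehicle tumors, which spanned all others. Transcripts of the Y chromosome stood at 15.6 to 25.8 CPM in 7 tumors and at no more than 1.33 CPM in the other 5 (m1, m2, m5, m7 and m10), a difference between hosts that the labels do not give. Of these 5, m1 and m2 are vehicle tumors, and m5, m7 and m10 each belong to a different treated group. The comparisons with vehicle are therefore not balanced for these transcripts. The planned term, for tumors above 1 CPM of these transcripts, set apart only m5 and m7, so it did not separate these sets of tumors. With it Phlda3 after VCR was at 0.49 (adjusted p = 0.199 by edgeR). A term for tumors above 5 CPM, chosen after seeing the data, did separate them. With that term Phlda3 after VCR was at 0.54 (adjusted p = 0.119 by edgeR). A Trp53 pseudogene is annotated on chromosome 17, and reads from near-identical copies cannot be told apart in these estimates.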

How the data were processed

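The deposited tables hold, per the file headers, the kallisto output of each tumor, with an estimated count, a TPM value and an effective length for each of 120299 RefSeq transcripts. The authors made poly-A libraries, described as stranded by kit name and as non-stranded by text, and quantified reads against a transcript index of GRCm38, with kallisto and DESeq2 named in the submitters' processing notes and no version given. Estimated counts and TPM were summed here per gene over 38898 genes, all transcripts being matched to RefSeq genes of GRCm38.p6, and summed counts were rounded. No pair of tumors held identical estimated counts. Each table is 1 tumor, and p-values measure the spread between these tumors, which the labels number without naming the mice.

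The main test was edgeR 4.0.16 (quasi-likelihood, TMM, filterByExpr with a minimum count of 10, 1 fit over 12 tumors, adjusted p under 0.1), under R 4.3.3. The standard errors were computed here from its log2 fold change and F statistic, and the 95% intervals use them with its degrees of freedom. They are thus approximate. Alternatives were DESeq2 1.42.0, limma-voom 3.58.1, other scaling factors, filters, length and GC offsets, a term for Y-linked transcripts, fewer tumors and a threshold of 0.05. The script was tested on simulated counts. Correlations used log2(CPM + 0.1) and 100000 permutations in scipy 1.17.1, and transcript shares used exact permutation tests.

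The members and gene lists were chosen with earlier results of these data known. Of each list, genes past the threshold in any comparison were named, with the 2 lowest unadjusted p-values in each comparison with vehicle. The likeness rule took the 5 genes with the highest r.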

Additional observations from a re-analysis of the deposited data

How the results depend on the processing

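Phlda3 was the 1 member called after VCR and did not hold under every alternative. The count of members called after VCR was 0 with GC and length splines, with either term for Y-linked transcripts (the limit of 5 CPM was chosen after seeing the data), with only the groups compared, without m5 and m9, and at an adjusted p under 0.05, and it ranged from 0 to 1 when single tumors were left out (0 without m1, m2, m4, m5, m10, m11 or m12). DESeq2 called 1 member after RCM1-NPFA and 1 in the interaction. With only the groups compared, where edgeR called 0, DESeq2 called 1 member after VCR, 4 other targets, 1 regulator and 2 cell cycle genes. Of the other targets after VCR, 0 were called without a filter, with splines, with either Y-linked term, with only the groups compared, without m5 and m9 and at 0.05, 5 were called by DESeq2, and 0 to 6 when single tumors were left out. Of the regulators, 2 were called with upper-quartile factors and with a mean of at least 50 counts, 3 by DESeq2, 0 by limma-voom, with either Y-linked term, with only the groups compared, without m5 and m9 and at 0.05, and 0 to 4 when single tumors were left out. Of the cell cycle genes, 1 was called without a filter and with the Y-linked term at 5 CPM, 0 with splines, with the planned Y-linked term, with only the groups compared, without m5 and m9 and at 0.05, and 0 to 3 when single tumors were left out. The causes were not tested. The share of all tested genes called under the same setting was not set beside these counts, so they are not read as particular to these lists. Of 823 alternative values for members, 751 kept the sign and the side of the threshold, 12 lost the call, 2 gained one and 58 changed sign.

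Values that changed sign are given here. With splines the log2 differences were -0.069 (VCR) and -0.074 (RCM1-NPFA) for Trp53, -0.080 and -0.061 for Cdkn1a, -0.014 (RCM1-NPFA) and -0.017 (combination) for Mdm2, 0.007 for Eda2r (combination), -0.028 for Sesn1 (VCR), 0.016 for Phlda3 (combination against VCR) and -0.070 for Bax (VCR). With the Y-linked term Cdkn1a stood at -0.006, Eda2r at 0.093 and Aen at -0.016 after RCM1-NPFA, and with the limit of 5 CPM Mdm2 stood at -0.007 (RCM1-NPFA) and -0.008 (combination) and Sesn1 at -0.024 (VCR). Without m5 and m9, Cdkn1a was -0.116, Mdm2 -0.025 and Ccng1 -0.011 after RCM1-NPFA. Mdm2 was -0.001 after RCM1-NPFA with a mean of at least 50 counts, and Eda2r 0.009 after the combination with length offsets. On the TPM scale the relation to Trp53 was -0.240 for Cdkn1a, -0.466 for Mdm2, -0.162 for Phlda3 and -0.006 for Aen, and without m5 and m9 it was -0.173 for Aen. Under each of these 2 settings 0 targets had an adjusted p under 0.05, though r for Zmat3 without m5 and m9 was 0.788 (permutation, adjusted p = 0.0557).

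When single tumors were left out, values that crossed 0 ranged after VCR from -0.106 to 0.404 for Cdkn1a, -0.094 to 0.083 for Mdm2, -0.093 to 0.128 for Sesn1, -0.064 to 0.197 for Zmat3 and -0.450 to 0.189 for Trp53inp1. After RCM1-NPFA they ranged from -0.061 to 0.103 for Trp53, -0.197 to 0.314 for Cdkn1a, -0.041 to 0.133 for Mdm2, -0.010 to 0.437 for Ccng1, -0.408 to 0.134 for Eda2r, -0.005 to 0.255 for Zmat3, -0.414 to 0.194 for Trp53inp1 and -0.048 to 0.149 for Aen. After the combination they ranged from -0.087 to 0.052 for Trp53, -0.058 to 0.452 for Cdkn1a, -0.039 to 0.134 for Mdm2, -0.189 to 0.096 for Eda2r, -0.059 to 0.144 for Sesn1, -0.140 to 0.121 for Zmat3, -0.313 to 0.301 for Trp53inp1 and -0.079 to 0.159 for Aen. The leading share of Trp53 ranged from -0.20 to 2.87 points after VCR, -1.63 to 1.45 after RCM1-NPFA and -0.31 to 2.77 after the combination.

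No paired analysis was possible because each tumor carries its own number and the labels link none across groups. With 3 tumors a group, the printed intervals give the precision of each difference, and GC content was at hand for 89% of tested genes.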

Other observations

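The levels of the further p53 targets were spread over a wide range and held no simple order by role. Rps27l was the most abundant, at 405 ± 34.6 TPM (SD, n = 12), followed by Bax at 170 ± 12.8 TPM and Plk2, a kinase of the stress response, at 142 ± 18.9 TPM. Cd82, a tetraspanin that restrains metastasis, stood at 69.8 ± 3.76 TPM and Gadd45a, a sensor of DNA damage, at 32.5 ± 3.34 TPM. Among the death genes the BH3-only members differed, with Bbc3 (PUMA) at 15.7 to 31.0 TPM and Pmaip1 (NOXA) at 0.747 to 1.47 TPM, and the death receptor Fas stood at 1.04 to 2.53 TPM. Perp, a desmosomal protein that p53 and p63 raise in epithelia, did not pass the filter on low counts and stood at 0.0304 to 0.437 TPM. These genes were chosen after their values were seen.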
